A study of Mus musculus with 28 samples.

Results

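Whole-cortex RNA from mice at day 30 of experimental autoimmune encephalomyelitis (EAE) was compared with whole-cortex RNA from day 15, to ask what had resolved and what persisted between the acute and the chronic phase. The comparison takes the 9 samples that the labels call input cortex in EAE, of 28 samples in the series: 5 from the acute phase (day 15 after immunization) and 4 from the chronic phase (day 30). All carry the genotype Glt25d2 BacTRAP, a transgene that tags ribosomes of layer 5 cortical neurons under Glt25d2 regulatory elements so that their RNA can be pulled down. Input is the RNA of the whole tissue before that pulldown, so the tag does not select the cells measured here. EAE was induced actively with the myelin peptide MOG35-55. The 5 healthy input samples, of the same genotype and with no day given in the labels, serve as the reference level, and the 14 pulldown samples enter only 1 comparison, at the end. Nothing in the labels says whether each sample is a separate mouse or a pool, or gives age or sex, so p-values measure the spread between these samples. Time after immunization, age and date of collection cannot be told apart from the phase.

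EAE is a mouse model of multiple sclerosis in which T cells primed against myelin enter the central nervous system. Interferons made in the inflamed tissue activate STAT and IRF transcription factors, which bind interferon-stimulated response elements and switch on antiviral genes, while interferon gamma also raises guanylate-binding proteins, the immunoproteasome and major histocompatibility complex (MHC) genes. Microglia and astrocytes respond to the same signals with complement, chemokines and intermediate filaments. Stress raises circulating glucocorticoids, which act on many brain cells through the glucocorticoid receptor.

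Antiviral genes were taken because that list had the largest share of members lower at day 30. Of the 3 with the smallest adjusted p against acute that have a promoter window, Phf11d held no match to the motif below. Stretches at the 5′ end of the other 2, Isg15 and Ifitm3, are shown. They come from the RefSeq promoter windows of build GRCm38.p6 (250 bases before to 50 after an annotated start), and capitals mark matches to GAAANNGAAA, the core of the interferon-stimulated response element, searched on both strands. Isg15 encodes a ubiquitin-like modifier and lies on chromosome 4 (chr4:156199424-156200818, minus strand). The 250 bases before its start (chr4:156200819-156201068) hold 3 overlapping matches, of which the capitals span 22 bases, from 78 to 57 bases before the start.
Isg15: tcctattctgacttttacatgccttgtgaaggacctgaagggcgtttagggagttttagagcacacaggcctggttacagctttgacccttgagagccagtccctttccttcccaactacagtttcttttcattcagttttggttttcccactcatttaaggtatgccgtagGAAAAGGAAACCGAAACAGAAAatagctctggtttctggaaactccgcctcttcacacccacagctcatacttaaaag
Ifitm3 encodes a membrane protein that blocks virus entry, and its 2 matches lie within 27 bases just after the RefSeq start (chr7:141010716-141010742, minus strand).
Ifitm3: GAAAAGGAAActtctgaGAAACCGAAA
The motif was present in 12 of 24 antiviral genes that have a window (50%) and in 8 of 9 interferon-inducible GTPase genes (88.9%), against 3.8% of 12010 tested genes with a window and 3.44% of all 32851 windows. It was present in 1 of 19 glucocorticoid-responsive genes (5.26%). The palindrome of the glucocorticoid response element (GNACA, any 3 bases, TGTNC) was found in 3 of those 19 genes (15.8%), in none of the 24 or the 9, and in 0.416% of tested genes. The windows of Cdkn1a, Nfkbia and Ddit4, taken by the same rule from the glucocorticoid list, held no match to it. A match describes the letters only and says nothing of binding.

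The input libraries held between 17848273 and 27915940 counts on genes, and 16381 genes passed the filter on low counts. Cortical neuron markers were present in every library, with Slc17a7, the vesicular glutamate transporter of cortical excitatory neurons, at 1204 to 1558 CPM (counts scaled to a common library total, on library sizes normalised by edgeR's TMM method) in acute and 1112 to 1454 in chronic libraries. Levels of choroid plexus and striatum genes varied between libraries within each group: Ttr, the transthyretin of choroid plexus, ran from 0.897 to 80.9 CPM in acute, 2.08 to 266 in chronic and 0.95 to 153 in healthy libraries. The Y-linked gene Ddx3y was present throughout, at 22.6 to 39.1 CPM in acute and 18.2 to 50.8 in chronic libraries. In a principal component analysis of the 1000 most variable genes, the first component (60.6% of variance) placed the acute libraries between -33.3 and -19.6 and the healthy ones between 28.1 and 31.5. Chronic libraries 1, 2 and 3 lay at 1.18, -3.72 and 2.68, and chronic library 4 at -16.4, close to the acute range. On the second component (6.98%) it lay at -15.2, outside the acute range of -1.59 to 10.6 and near healthy library 3 (-14.2). Chronic library 4 therefore stands apart from the other chronic libraries, and many results that rest on it are given with and without it. It was not the only atypical library. Library weights from limma voom, lower for more deviant libraries, were lowest for acute library 5 (0.516), chronic library 4 (0.578) and healthy library 3 (0.614). In bulk tissue, fewer cells of a type and less RNA per cell cannot be told apart.

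Between day 15 and day 30, 776 genes fell and 483 rose (edgeR quasi-likelihood test, Benjamini-Hochberg adjusted p under 0.05), which is 4.74% and 2.95% of those tested. The falls were larger: 170 genes fell more than 2-fold and 24 rose more than 2-fold, and the median log2 difference was -0.32 among genes that fell and 0.29 among those that rose. The median over all tested genes was 0.0077. The count of rises rested on single libraries: it was 259 without chronic library 2, 287 without acute library 3 and 314 without chronic library 1, and the falls ranged from 525 to 813 over all 14 libraries left out in turn. A fit that shared its estimate of spread with the pulldown libraries called 0 of these changes in edgeR (67 genes had an unadjusted p under 0.05). In 6.38% of genes all 4 chronic libraries lay below all 5 acute ones, and in 4.45% all lay above. Against the healthy libraries, 2.33% of genes were higher and 0.409% lower in chronic EAE, while in acute EAE 11.1% were higher and 8.59% lower. Counts of list members below are to be read beside these shares of all genes: 4.74% that fell, 2.95% that rose and 2.33% above healthy at day 30. The 3 comparisons share libraries, so their values are set side by side and not tested against each other. Where a gene was higher in acute than in healthy cortex, the part of that rise in mean CPM still present at day 30 is called the retained share below, as a description with no test.

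**Figure D1:**
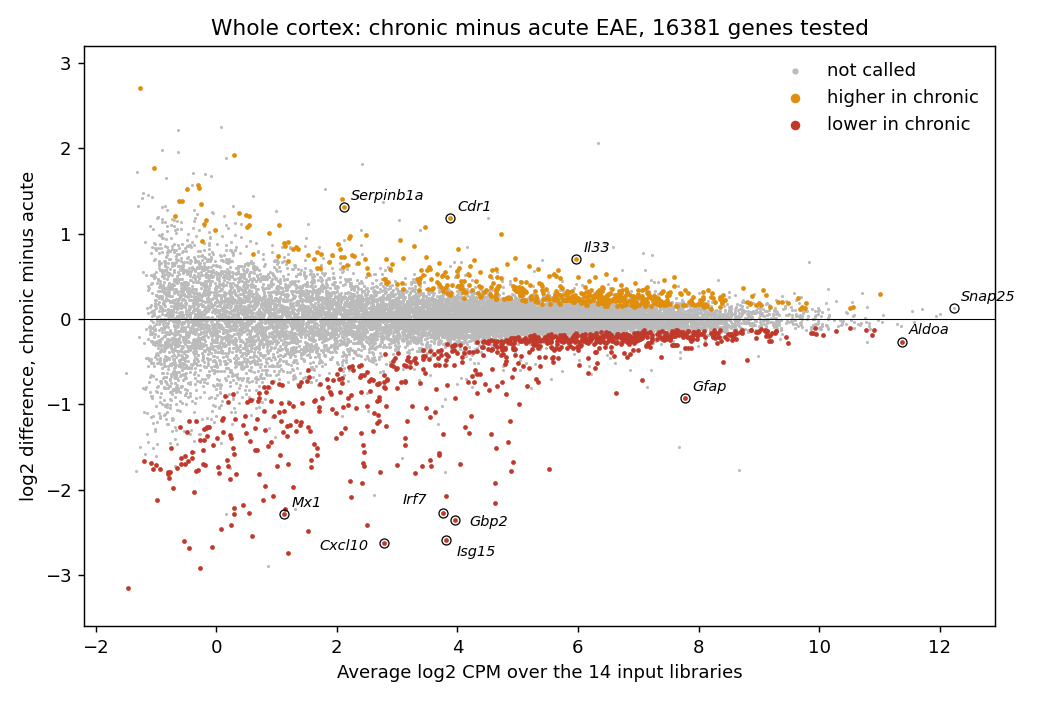
Each point is 1 of 16381 genes, with its average log2 CPM over the 14 input libraries on the x axis and the log2 difference of chronic minus acute on the y axis. Coloured points passed the test (483 higher in orange, 776 lower in red), and the labelled interferon-stimulated genes Cxcl10, Isg15, Irf7, Gbp2 and Mx1 lie below -2.

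Changes also followed gene length and base composition. Over 5 equal bins of genes ordered by exon length, the median log2 difference of chronic minus acute ran from -0.068 in the shortest to 0.076 in the longest, and the share called lower went from 8.73% to 1.53% while the share called higher went from 1.01% to 7.45%. By GC content the median ran from 0.099 in the bin with least GC to -0.076 in that with most. The acute libraries departed from healthy along both trends, acute library 5 most in the outer bins, whereas the median chronic minus healthy difference lay between -0.02 and 0.02 in every bin. An alternative with a length and GC offset per library, chosen after this was seen, called 192 genes higher and 329 lower. Results for short or long gene classes are given beside that offset, since its part in them was not tested otherwise.

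**Figure D2:**
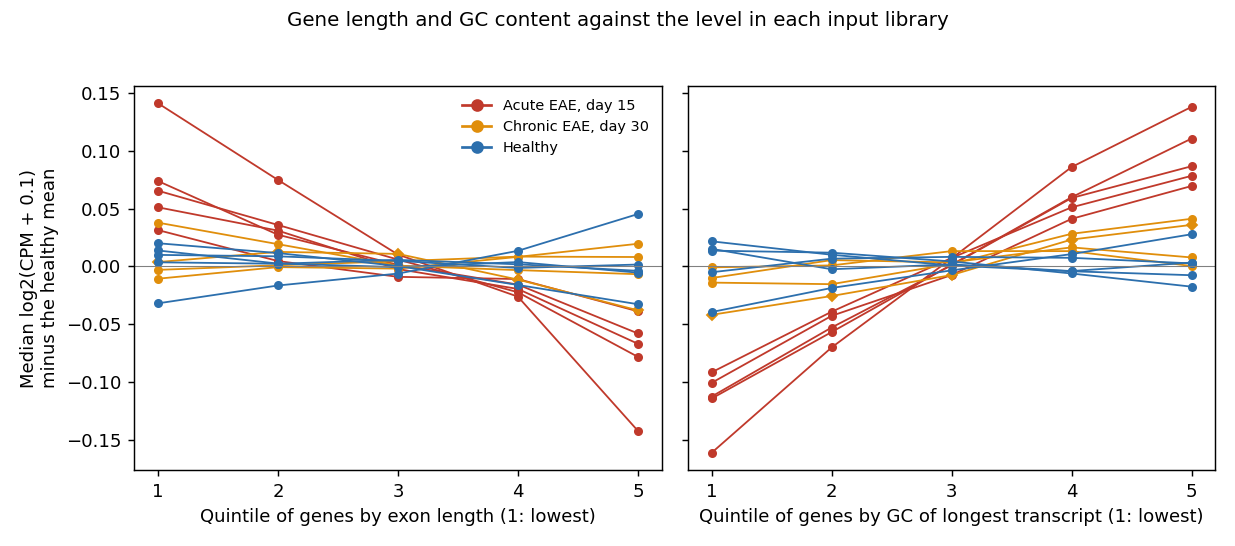
The median over genes of log2(CPM + 0.1), minus the healthy mean, is drawn for each of 14 input libraries against 5 bins of genes by exon length (left) and by GC content of the longest transcript (right). Acute libraries (red) fall with length and rise with GC, and chronic libraries (orange, diamond for library 4) lie near the healthy ones (blue).

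Antiviral interferon-stimulated genes had the largest share of falls of all 49 lists. All 34 tested members of the list were lower in chronic than in acute cortex, against 4.74% of all genes, with a median log2 difference of -1.58. In all 34 the 4 chronic libraries lay below the 5 acute ones, against 6.38% of all genes. At day 30, 21 of the 34 were still above healthy (15 without chronic library 4), with a median log2 difference of 1.58, and the median retained share was 22.9% (17.1% without chronic library 4). Isg15 stood at 43.9, 22.3, 52.8, 21.9 and 21.3 CPM in acute libraries 1 to 5 and at 3.55, 6.30, 4.85 and 6.80 in chronic libraries 1 to 4. Healthy libraries held 1.35 to 2.38 CPM, so every chronic library lay below acute and above healthy, without passing the test against healthy. Its log2 difference was -2.59 (SE 0.33, adjusted p = 0.0012) against acute and 1.59 (adjusted p = 0.063) against healthy, and the retained share was 11.7%.

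Mx1, a dynamin-like GTPase that blocks virus replication, stood at 6.17, 3.16, 7.48, 3.57 and 2.81 CPM in acute and 0.722, 0.712, 0.959 and 1.37 in chronic libraries. The log2 difference was -2.29 (SE 0.32, adjusted p = 0.00065), and each chronic library lay above the healthy range of 0.108 to 0.384 CPM. Rsad2, the enzyme viperin that makes a chain-terminating nucleotide, stood at 4.76, 3.19, 5.77, 4.94 and 3.75 CPM in acute and 0.444, 0.915, 0.480 and 1.95 in chronic libraries. With a healthy range of 0.113 to 0.659, its chronic libraries overlapped healthy ones, and the log2 differences were -2.22 (SE 0.36, adjusted p = 0.0015) against acute and 1.16 (adjusted p = 0.24) against healthy. Ifitm3 kept more of its rise: it stood at 38, 25.7, 46.2, 34.3 and 31.3 CPM in acute and 11.6, 14.3, 11.7 and 17.9 in chronic libraries, against 3.18 to 5.24 in healthy ones, with a retained share of 31.7%. Its log2 difference from acute was -1.34 (SE 0.18, adjusted p = 0.0008).

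The oligoadenylate synthetase genes Oas2 and Oasl2, which sense double-stranded RNA or derive from such sensors, had log2 differences of -1.70 (SE 0.27, adjusted p = 0.0012) and -2.16 (SE 0.34, adjusted p = 0.0038). The chaperone gene Rtp4 fell with a log2 difference of -1.80 (SE 0.23, adjusted p = 0.00065). Usp18, the protease that removes ISG15 and dampens interferon receptors, fell with -1.93 (SE 0.36, adjusted p = 0.0058), and Zbp1, a sensor of Z-form nucleic acid, with -2.09 (SE 0.36, adjusted p = 0.004). Ifi44 stood at 3.84 to 10.3 CPM in acute and 0.444 to 1.90 in chronic libraries (log2 difference -2.48, SE 0.48, adjusted p = 0.0071), with chronic libraries overlapping healthy ones (0.0555 to 0.824). The tetherin gene Bst2 fell with -1.72 (SE 0.34, adjusted p = 0.011) and the RNA sensor gene Ifih1 with -0.74 (SE 0.19, adjusted p = 0.026). Without chronic library 4 the call against acute held for 33 of the 34 genes, and with the length and GC offset for 34. Over the 14 fits with 1 library left out, the call was kept in 10 for Ifih1.

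Interferon-inducible GTPases, which attack the vacuoles of intracellular pathogens, were also mostly lower. Of 13 tested, 12 fell (median log2 difference -1.63), and all 13 were above healthy at day 30 with a median of 2.91 (11 of them without chronic library 4). Gbp2 stood at 49.2, 23.5, 50.7, 30.5 and 28.6 CPM in acute and 3.83, 8.34, 4.85 and 11.3 in chronic libraries. The healthy range was 0.451 to 1.10 CPM, so the groups did not overlap, and the log2 differences were -2.36 (SE 0.32, adjusted p = 0.0017) against acute and 3.16 (adjusted p = 0.0036) against healthy. Irgm1 stood at 109, 72.2, 127, 89.7 and 82.0 CPM in acute and 20.5, 30.6, 21.3 and 40.8 in chronic libraries against 8.18 to 10.2 in healthy ones, with a log2 difference of -1.76 (SE 0.21, adjusted p = 0.00097) from acute. Gbp3 and Gbp7 had log2 differences of -1.59 (SE 0.27, adjusted p = 0.004) and -1.57 (SE 0.27, adjusted p = 0.0041). Iigp1 stood at 37.9 to 85.6 CPM in acute and 7.88 to 26.9 in chronic libraries (log2 difference -1.92, SE 0.37, adjusted p = 0.01), where its highest chronic value is that of library 4 and the healthy range is 0.325 to 0.933. Tgtp2 was the member not called, at 27.4, 11.6, 24.5, 13.7 and 13.5 CPM in acute and 3.11, 5.54, 1.92 and 12.8 in chronic libraries (log2 difference -1.63, SE 0.47, adjusted p = 0.058), and without chronic library 4 its log2 difference was -2.35 (adjusted p = 0.0058). Tgtp1 and Tgtp2, like several guanylate-binding protein and MHC genes, are near-identical copies whose reads the counting could split, so single values of these families are uncertain.

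Of 15 STAT and IRF transcription factors, 8 fell and none rose. Irf7, the master regulator of type I interferon genes, stood at 37.0, 22.7, 47.2, 24.5 and 20.9 CPM in acute and 5.16, 6.40, 5.49 and 8.06 in chronic libraries. It had the largest fall among these factors, -2.27 (SE 0.33, adjusted p = 0.002), and each chronic library was above the healthy range of 0.921 to 3.29. Stat2 came to overlap the healthy range: it stood at 34.0 to 52.2 CPM in acute, 20.4 to 23.7 in chronic and 16.0 to 21.0 in healthy libraries, with log2 differences of -0.88 (SE 0.12, adjusted p = 0.00065) from acute and 0.33 (adjusted p = 0.21) from healthy. Irf8, a factor of microglia and other myeloid cells, kept a larger share (39.7%) and stood at 12.2, 11, 10.1 and 11.9 CPM in chronic libraries, between 15.5 to 26.5 in acute and 5.15 to 6.04 in healthy ones. Irf1, Irf5 and Irf9 fell with log2 differences of -1.27 (SE 0.22, adjusted p = 0.004), -0.62 (SE 0.16, adjusted p = 0.025) and -1.13 (SE 0.18, adjusted p = 0.0026), and Stat3 with -0.32 (SE 0.08, adjusted p = 0.013). Stat6, Irf2 and Irf3 are examples of those that did not pass the test. At day 30, 7 factors were above healthy, or 2 without chronic library 4. With single libraries left out, the call held (of 14 fits) in 11 for Irf5 and 13 for Stat3 (not without chronic library 1). Under the length and GC offset, no call against acute remained for Irf5 (log2 difference -0.56, adjusted p = 0.057).

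The interferon genes themselves were at or near the floor. Ifnb1 had no count in any of the 14 input libraries and Ifng had at most 7 counts in an acute library and 0 in the chronic ones, so neither was tested. Of 9 tested receptors and feedback genes, 1 fell (2 without chronic library 4): Socs1, an inhibitor of JAK kinases, stood at 7.06, 3.01, 6.21, 3.57 and 4.94 CPM in acute and 1.44, 1.83, 2.45 and 2.21 in chronic libraries (log2 difference -1.31, SE 0.29, adjusted p = 0.011). The receptor gene Ifnar1 stood at 22.3 to 27.4 CPM in acute and 24.7 to 32.3 in chronic libraries, and its log2 difference of 0.10 had a 95% interval of -0.08 to 0.28.

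Among 15 tested sensors of cytosolic nucleic acid and their adaptors, 4 fell, all of them interferon-inducible: Ifi211, Ifi204, Ifi209 and Ddx58. Ifi211 stood at 5.86, 2.22, 4.70, 2.34 and 3.28 CPM in acute and 0.444, 0.915, 0.853 and 1.11 in chronic libraries (log2 difference -2.12, SE 0.35, adjusted p = 0.0015), and was 0 to 0.113 in healthy ones. Ddx58, which encodes the RNA sensor RIG-I, fell with a log2 difference of -1.02 (SE 0.18, adjusted p = 0.002). Sting1, the adaptor downstream of cyclic GMP-AMP, stood at 1.88, 2.19, 2.30, 1.32 and 3.02 CPM in acute and 1.55, 1.47, 1.07 and 2.74 in chronic libraries. Its chronic and acute libraries overlapped and the log2 difference was -0.32 (SE 0.30, adjusted p = 0.57), with a 95% interval of -0.94 to 0.30. Against the healthy range of 0.329 to 0.998 CPM the log2 difference was 1.39 (adjusted p = 0.029), and 1.06 (adjusted p = 0.17) without chronic library 4. Cgas, which makes that cyclic dinucleotide, stood at 1.04 to 2.74 CPM in acute, 1.72 to 2.29 in chronic and 0.832 to 1.80 in healthy libraries, with a log2 difference of -0.07 (SE 0.26, adjusted p = 0.91) from acute.

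**Figure D3:**
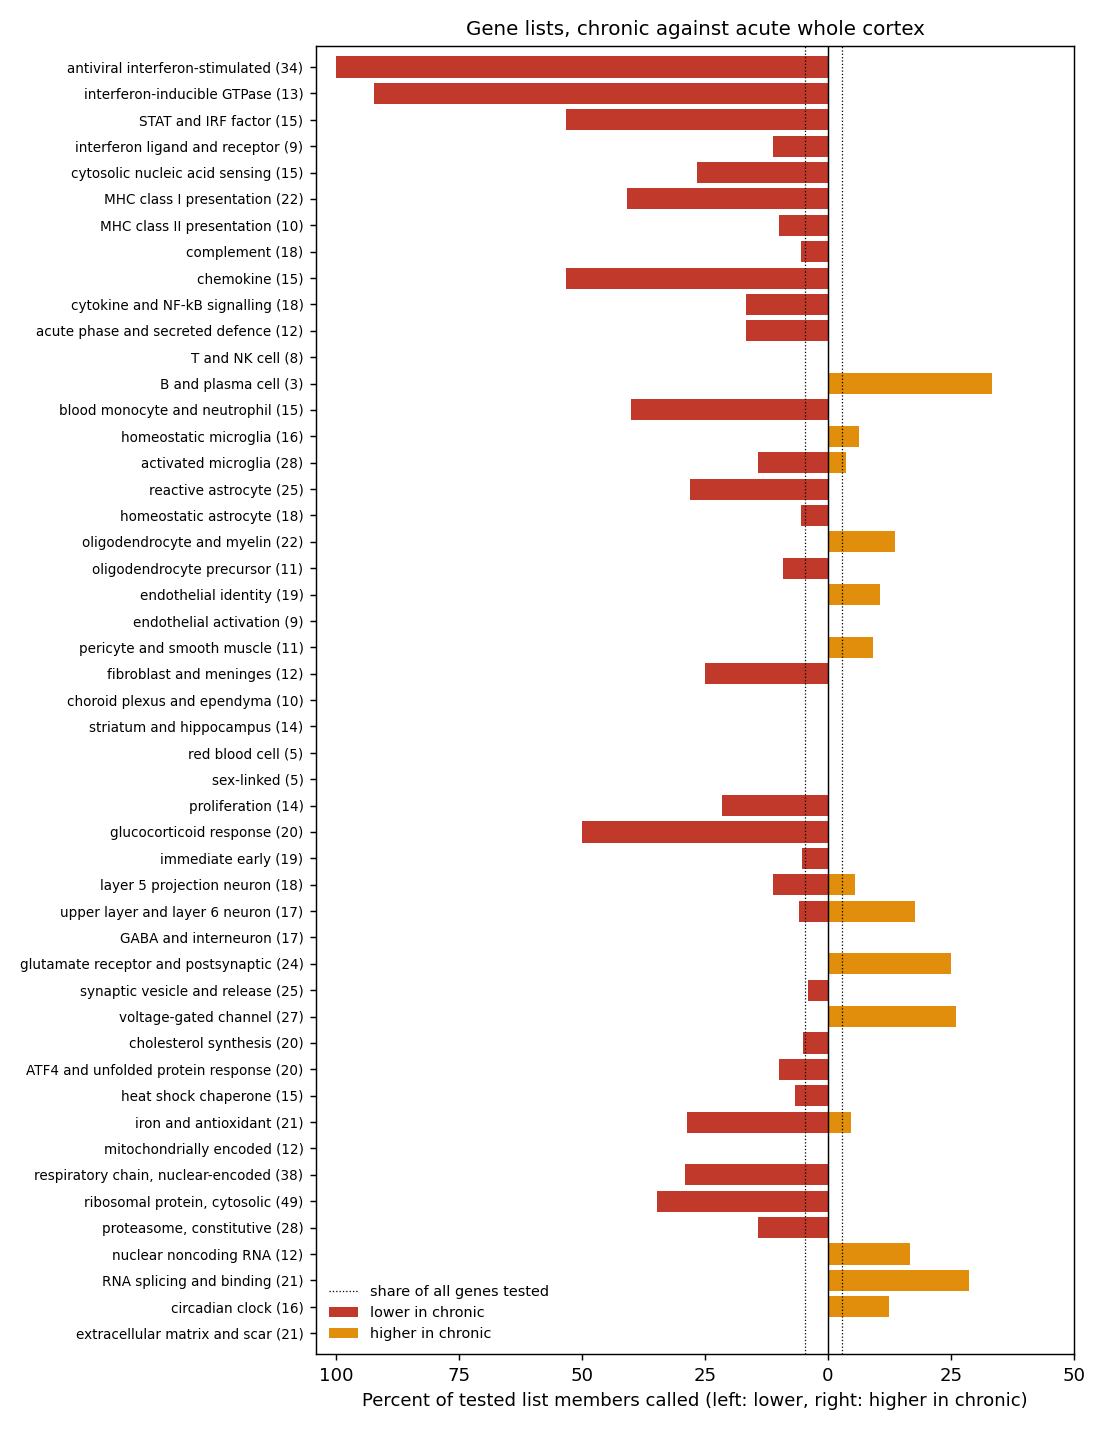
For 49 gene lists (number of tested members in brackets), bars give the percent of tested members called lower (left, red) or higher (right, orange) in chronic than in acute cortex, and dotted lines the percent of all 16381 genes. The antiviral list reaches 100% on the left, and glutamate receptor, voltage-gated channel and RNA splicing lists lead on the right among lists of over 10 genes.

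Of 15 chemokine genes tested, 8 fell (median -1.03) and 8 were above healthy at day 30 (6 without chronic library 4). Cxcl10, which attracts CXCR3-bearing T cells, stood at 20.4, 8.39, 27.8, 11.2 and 14.3 CPM in acute and 1.28, 2.54, 1.44 and 5.27 in chronic libraries. Healthy libraries held 0.0542 to 0.166 CPM, so the 3 groups were separate, with log2 differences of -2.63 (SE 0.43, adjusted p = 0.0039) from acute and 4.83 (adjusted p = 0.0078) from healthy. Ccl2, Ccl8 and Ccl12 attract monocytes. Ccl8 stood at 2.77, 2.51, 4.21, 2.91 and 4.01 CPM in acute and 0.555, 0.559, 0.213 and 0.896 in chronic libraries (log2 difference -2.54, SE 0.35, adjusted p = 0.00053). Ccl2 fell with a log2 difference of -2.42 (SE 0.41, adjusted p = 0.0018) and Ccl12 with -1.45 (SE 0.26, adjusted p = 0.0026). Ccl5 fell and stood at 6.96 to 18.5 CPM in acute and 1.39 to 5.53 in chronic libraries (log2 difference -1.90, SE 0.39, adjusted p = 0.011). Cxcl9, an interferon gamma target, stood at 9.10, 5.17, 7.48, 3.39 and 6.09 CPM in acute and 0.888, 1.07, 0.959 and 4.95 in chronic libraries. Its chronic library 4 lay within the acute range while the other 3 lay near 1 CPM, and the log2 difference was -1.65 (SE 0.46, adjusted p = 0.044). Leaving out each library in turn, the call held (of 14 fits) in 2 for Cxcl9. The length and GC offset ended the call against acute for Cxcl9 (log2 difference -1.69, adjusted p = 0.064).

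Of 22 MHC class I presentation genes tested, 9 fell, and these were the immunoproteasome subunits Psmb8, Psmb9 and Psmb10, the activators Psme1 and Psme2, the transporter Tap1, the transactivator Nlrc5 and the nonclassical genes H2-T22 and H2-T23. Psmb8 stood at 46.9, 23.9, 46.3, 29.6 and 29.9 CPM in acute and 8.55, 10.2, 6.66 and 18.1 in chronic libraries against 1.30 to 2.36 in healthy ones, with log2 differences of -1.69 (SE 0.29, adjusted p = 0.0044) from acute and 2.69 (adjusted p = 0.0023) from healthy. Psmb10 overlapped the healthy range, at 83.6, 73.2, 92.6, 74.8 and 82.7 CPM in acute and 55.5, 55.7, 51.5 and 61.5 in chronic libraries against 52.1 to 57.3 (log2 difference -0.54, SE 0.07, adjusted p = 0.00031). Psme1 fell with a log2 difference of -0.50 (SE 0.08, adjusted p = 0.0011). The heavy chain gene H2-K1 stood at 70.1, 41.5, 77.4, 63.0 and 88.0 CPM in acute and 25.7, 23.1, 17.1 and 89.3 in chronic libraries, against 3.80 to 7.15 in healthy ones. Chronic libraries 1 to 3 lay below every acute library and library 4 above them all, and the log2 difference was -0.81 (SE 0.43, adjusted p = 0.31), or -1.63 (adjusted p = 0.0036) without library 4. B2m, the light chain, showed the same order, at 86.9, 70.9, 64.8 and 209 CPM in chronic libraries against 113 to 174 in acute and 29.4 to 37.8 in healthy ones. Without chronic library 4, 17 of the 22 genes fell and the median went from -0.53 to -1.04.

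Values of MHC class II and complement genes rested on chronic library 4. Of 10 class II genes 1 fell, against 4.74% of all genes: the transactivator Ciita (log2 difference -1.25, SE 0.31, adjusted p = 0.02). At day 30, 7 class II genes remained above healthy, against 2.33% of all genes, with a median of 2.32. H2-Ab1 stood at 14.8, 9.54, 15.5, 13.7 and 14.8 CPM in acute and 5.44, 5.13, 3.62 and 22.7 in chronic libraries, against 0.165 to 0.788 in healthy ones. Chronic library 4 exceeded every acute library and the others lay below all of them. The log2 difference was -0.56 (SE 0.47, adjusted p = 0.53), with a 95% interval of -1.58 to 0.46, and without library 4 it was -1.53 (adjusted p = 0.00098). The invariant chain gene Cd74 stood at 21.3, 16.8, 16.0 and 72.5 CPM in chronic libraries against 34.2 to 54.9 in acute and 1.44 to 2.48 in healthy ones, so that all 4 exceeded healthy by far. Without library 4, 6 of the 10 class II genes fell (median -1.38 in place of -0.62) and 6 were above healthy. Of the 14 fits that each left out 1 library, those that kept the call numbered 11 for Ciita.

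Of 18 complement genes, 1 fell (5.56%, against 4.74% of all genes), Serping1, the inhibitor of C1 (log2 difference -1.27, SE 0.28, adjusted p = 0.012). C4b stood at 39.1, 33.9, 49.1, 46.4 and 59.0 CPM in acute and 17.2, 25.2, 18.5 and 63.6 in chronic libraries, against 3.40 to 6.04 in healthy ones, with log2 differences of -0.55 (SE 0.35, adjusted p = 0.4) from acute and 2.65 (adjusted p = 0.005) from healthy. Its chronic library 4 again lay above the acute range. C3, the hub of the cascade, stood at 3.92, 2.30, 3.91, 2.86 and 6.19 CPM in acute and 1.22, 0.762, 0.426 and 3.43 in chronic libraries (log2 difference -1.38, SE 0.48, adjusted p = 0.094), and C1qb, a recognition subunit made by microglia, at 28.4, 25, 33.4, 29.2 and 43.4 and 13.2, 13.4, 12.6 and 33.9. Without library 4, 7 complement genes fell (median -0.82 in place of -0.33) and 3 were above healthy in place of 6. With that library included, 2.33% of all genes were above healthy. The median retained share was 63.9% with that library and 32.0% without it, and for class II genes 59.4% and 33.8%.

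**Figure D4:**
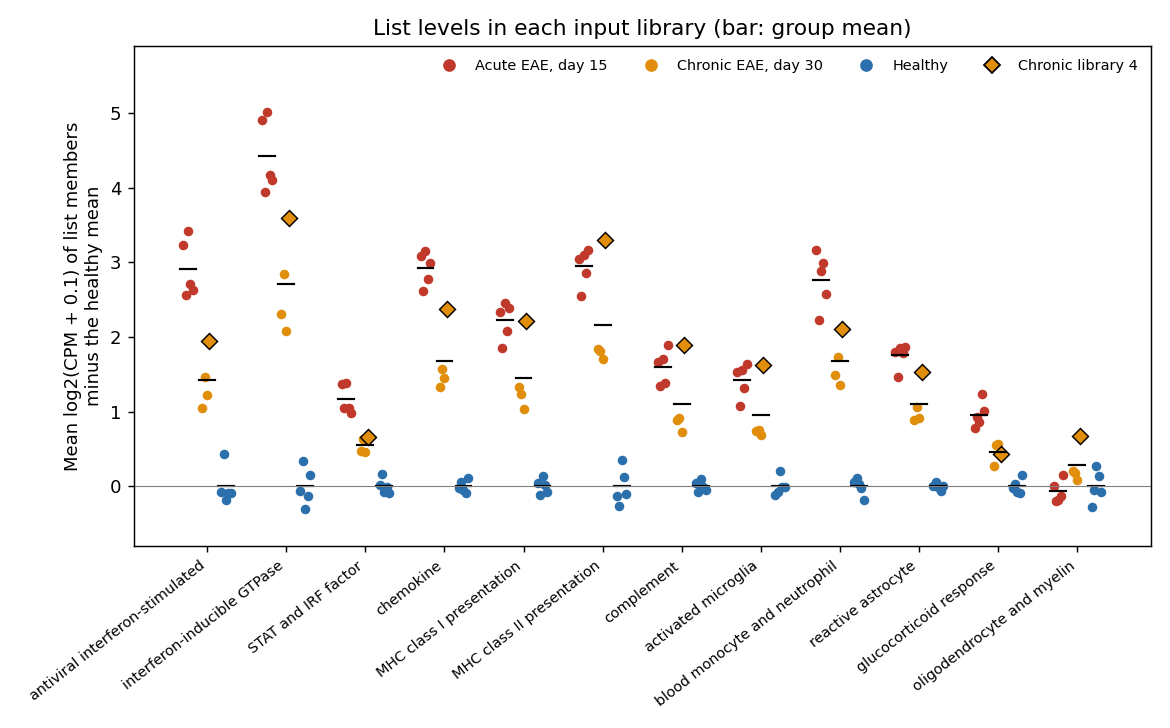
Each point is the level of a list in 1 of 14 input libraries, as the mean log2(CPM + 0.1) of its tested members minus the healthy mean; bars are group means. Chronic libraries (orange) lie between acute (red) and healthy (blue) in the inflammatory lists, and chronic library 4 (diamond) reaches the acute level in the MHC and complement lists but not in the antiviral one.

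Among the 16 homeostatic genes of microglia, 10 had a positive and 6 a negative log2 difference (median 0.11, or -0.10 without chronic library 4). P2ry12, the ADP receptor of resting microglia, was the 1 called, against 2.95% of all genes called higher: it stood at 4.66, 5.38, 4.16, 5.77 and 6.03 CPM in acute and 9.77, 7.01, 6.34 and 10.9 in chronic libraries, a log2 difference of 0.70 (SE 0.16, adjusted p = 0.012), and the chronic values overlapped the healthy range of 6.95 to 9.52. Of 28 genes of activated microglia, 4 fell and 1, the lipase gene Lpl, rose (log2 difference 0.69, SE 0.18, adjusted p = 0.03), and 11 remained above healthy. The shares of all genes were 4.74%, 2.95% and 2.33%. Aif1, which encodes IBA1, stood at 11.8, 11.5, 15.2, 9.48 and 11.7 CPM in acute and 4.94, 6.05, 7.36 and 8.85 in chronic libraries (log2 difference -0.81, SE 0.16, adjusted p = 0.0045). Spp1, the cytokine osteopontin, overlapped the healthy range of 3.62 to 5.69 CPM at day 30, with 6.90, 5.85, 10.7, 8.77 and 13.9 in acute and 3.39, 4.57, 5.44 and 5.64 in chronic libraries (log2 difference -0.95, SE 0.23, adjusted p = 0.02). Lgals3, a galectin of phagocytes, fell with a log2 difference of -1.32 (SE 0.33, adjusted p = 0.019) and Tyrobp, a signalling adaptor of microglial receptors, with -0.85 (SE 0.22, adjusted p = 0.025). Trem2, Apoe and Cd68 were not called in chronic against acute, at log2 differences of 0.18, -0.08 and -0.33, the first turning to -0.33 (adjusted p = 0.33) without chronic library 4. Without chronic library 4, 10 of the 28 activated genes fell and 4 were above healthy. Over the 14 fits with 1 library left out, the call was kept in 7 for Lpl, 12 for Spp1 (not without chronic library 1 or chronic library 2), 11 for Lgals3 and 9 for Tyrobp. The length and GC offset ended the call against acute for Lpl (log2 difference 0.61, adjusted p = 0.11) and Tyrobp (log2 difference -0.71, adjusted p = 0.077).

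Lymphocyte markers were low throughout. Of 22 T and NK cell genes on the list, 8 were tested and none called, against 2.95% and 4.74% of all genes. Cd3e reached at most 13 counts in an acute and 16 in a chronic library. Of 12 B and plasma cell genes 3 were tested, and Ighm, at 28.8 to 40.1 CPM in acute and 37.4 to 55.3 in chronic libraries, was higher in chronic (log2 difference 0.42, SE 0.12, adjusted p = 0.038) and overlapped the healthy range of 36.5 to 49.6. Of 15 monocyte and neutrophil genes tested, 6 fell and 10 were above healthy at day 30, against 4.74% and 2.33% of all genes. Ly6c2, a marker of inflammatory monocytes, stood at 1.83, 0.897, 2.01, 2.16 and 0.520 CPM in acute and 0.167, 0.305, 0.213 and 0.211 in chronic libraries (log2 difference -2.68, SE 0.49, adjusted p = 0.0043), and had no count in healthy ones. Plac8 fell and stood at 2.48 to 8.37 CPM in acute and 0.555 to 1.88 in chronic libraries (log2 difference -1.97, SE 0.40, adjusted p = 0.0081). Ptprc, which encodes the pan-leukocyte antigen CD45, stood at 3.82, 2.51, 3.96, 3.17 and 3.75 CPM in acute and 4.88, 1.88, 1.87 and 6.01 in chronic libraries. It did not differ detectably between the phases (log2 difference 0.09, 95% interval -0.53 to 0.72, or -0.26 without chronic library 4) and was above the healthy range of 0.665 to 1.26 (log2 difference 1.90, adjusted p = 0.0041). The neutrophil gene S100a9 stood at 1.78, 0.966, 1.39 and 2.32 CPM in chronic libraries, overlapping the acute range of 1.36 to 5.69 and above the healthy range of 0.05 to 0.329 (log2 difference 3.26, adjusted p = 0.0046). With single libraries left out, the call held (of 14 fits) in 6 for Ighm.

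Of 25 reactive astrocyte genes tested, 7 fell, 3 of which (Cxcl10, Psmb8 and Gbp2) are the interferon targets above, and 9 remained above healthy. The shares of all genes were 4.74% and 2.33%. Without chronic library 4, 10 of the 25 fell and 7 remained above healthy. Gfap, the intermediate filament of astrocytes, stood at 437, 314, 397, 386 and 338 CPM in acute and 139, 222, 179 and 247 in chronic libraries, against 71.9 to 91.2 in healthy ones. The 3 groups did not overlap, with log2 differences of -0.93 (SE 0.15, adjusted p = 0.0044) from acute and 1.27 (adjusted p = 0.0014) from healthy, and 39.4% of the rise was retained. Vim, which encodes vimentin, stood at 80.1, 43.2, 63.6, 53.8 and 43.2 CPM in acute and 28.5, 36.3, 27.1 and 39.5 in chronic libraries (log2 difference -0.79, SE 0.18, adjusted p = 0.021). Cebpd, a transcription factor of the acute phase response, had a log2 difference of -1.15 (SE 0.16, adjusted p = 0.00065) from acute, the smallest p of the list. Lcn2, the iron-binding protein lipocalin 2, did not have a single count in the healthy libraries and stood at 4.60, 2.76, 4.16, 6.61 and 6.55 CPM in acute and 2.55, 3.15, 2.98 and 3.58 in chronic libraries. Its log2 difference from acute was -0.68 (SE 0.24, adjusted p = 0.11) and its retained share 62.1%. The acute phase gene Saa3 by contrast fell and stood at 0.897 to 2.30 CPM in acute and 0.111 to 0.474 in chronic libraries (log2 difference -2.92, SE 0.44, adjusted p = 0.00078). Saa3 and the chitinase-like gene Chil3 (log2 difference -2.60, SE 0.64, adjusted p = 0.025) were the 2 of 12 acute phase and secreted defence genes that fell, or 8 without chronic library 4. Of 18 cytokine and NF-κB genes 3 fell, Nfkb2 (log2 difference -0.58, SE 0.18, adjusted p = 0.047) and Tnfaip2 (log2 difference -0.66, SE 0.17, adjusted p = 0.023) besides Nfkbia. Among 18 homeostatic astrocyte genes 1 fell (5.56%, against 4.74% of all genes), Aldoc, the brain form of aldolase (log2 difference -0.28, SE 0.06, adjusted p = 0.0074). Its log2 difference from healthy was 0.24 (adjusted p = 0.03), a call that was lost without chronic library 4, at 0.22 (adjusted p = 0.12). Leaving out each library in turn, the call held (of 14 fits) in 12 for Vim (not without chronic library 1 or chronic library 3), 10 for Chil3, 6 for Nfkb2 and 10 for Tnfaip2. Calls against acute that ended with the length and GC offset were those of Nfkb2 (log2 difference -0.51, adjusted p = 0.11).

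Of 20 glucocorticoid-responsive genes, 10 fell, none rose, and all 20 differences were negative (median -0.59), against 4.74% of all genes called lower. At day 30, 5 of the 20 were above healthy (3 without chronic library 4), against 2.33% of all genes. The median retained share was 31.3%. Cdkn1a, the cell cycle inhibitor p21, stood at 46.2, 43.1, 46.0, 50.1 and 55.8 CPM in acute and 27.0, 32.8, 33.7 and 24.6 in chronic libraries (log2 difference -0.71, SE 0.10, adjusted p = 0.00067), where chronic libraries 1 and 4 lay below the healthy range of 31.6 to 41.2 and the others within it. Ddit4, an inhibitor of mTORC1, stood at 126, 159, 110.4, 173 and 121 CPM in acute and 57.3, 72.6, 85.0 and 88.2 in chronic libraries (log2 difference -0.87, SE 0.15, adjusted p = 0.0044), the chronic libraries overlapping the healthy range of 73.8 to 86.3. Sgk1, a kinase that regulates ion channels, fell with a log2 difference of -0.71 (SE 0.17, adjusted p = 0.024) and Tsc22d3, which encodes GILZ, with -0.41 (SE 0.09, adjusted p = 0.015). Fkbp5, a chaperone of the glucocorticoid receptor, stood at 72.2, 83.0, 101, 139 and 133 CPM in acute and 64.2, 73.0, 74.0 and 58.2 in chronic libraries. It missed the threshold (log2 difference -0.65, SE 0.18, adjusted p = 0.0502). Nfkbia, the inhibitor of NF-κB, belongs to this list and to that of NF-κB signalling, and fell and stood at 37.2 to 44.5 CPM in acute and 19.9 to 30.0 in chronic libraries (log2 difference -0.59, SE 0.11, adjusted p = 0.0038). The metallothionein gene Mt1 fell (log2 difference -0.34, SE 0.07, adjusted p = 0.0076) but stayed above healthy (log2 difference 0.41, adjusted p = 0.0041). With the length and GC offset 6 of the 20 were lower, and without chronic library 4, 8 were. Of 19 immediate early genes 1 fell (5.26%, against 4.74% of all genes), Jun (log2 difference -0.39, SE 0.10, adjusted p = 0.027), and the clock gene Per1, also glucocorticoid-responsive, was not called (log2 difference -0.59, SE 0.20, adjusted p = 0.1). Of the 14 fits that each left out 1 library, those that kept the call numbered 10 for Sgk1 and 9 for Jun. Lost calls against acute with the length and GC offset were those of Mt1 (log2 difference -0.20, adjusted p = 0.11) and Jun (log2 difference -0.32, adjusted p = 0.098).

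Of 20 ATF4 and unfolded protein response genes 2 fell, Ddit4 and the endoplasmic reticulum protein gene Sdf2l1 (log2 difference -0.47, SE 0.14, adjusted p = 0.047), and of 15 heat shock chaperones 1, Hspb8 (log2 difference -0.38, SE 0.10, adjusted p = 0.032), against 4.74% of all genes called lower. Of 21 iron and antioxidant genes 6 fell and 1 rose (none rose without chronic library 4). Hmox1, the heme-degrading enzyme, stood at 10.4, 9.90, 12.4, 10.5 and 9.83 CPM in acute and 7.16, 7.37, 7.36 and 6.59 in chronic libraries (log2 difference -0.57, SE 0.12, adjusted p = 0.0069). The ferritin light chain gene Ftl1 fell (log2 difference -0.21, SE 0.05, adjusted p = 0.021). Its log2 difference from healthy was 0.21 (adjusted p = 0.035), a call that was lost without chronic library 4, at 0.15 (adjusted p = 0.19). With the length and GC offset 1 of the 21 fell. Of 14 proliferation genes 3 fell: Top2a, a topoisomerase of dividing cells, stood at 5.6, 3.19, 3.96, 2.12 and 2.29 CPM in acute and 1.39, 1.78, 1.33 and 1.26 in chronic libraries, back in the healthy range of 1.22 to 1.95 (log2 difference -1.24, SE 0.27, adjusted p = 0.0076). Cdk1 and Birc5 had log2 differences of -1.47 (SE 0.35, adjusted p = 0.014) and -1.14 (SE 0.32, adjusted p = 0.032). Without chronic library 4 Birc5 was not called (log2 difference -1.01, adjusted p = 0.084). Over the 14 fits with 1 library left out, the call was kept in 3 for Sdf2l1, 8 for Hspb8, 9 for Ftl1, 13 for Cdk1 (not without chronic library 1) and 8 for Birc5. The length and GC offset ended the call against acute for Sdf2l1 (log2 difference -0.35, adjusted p = 0.2), Hspb8 (log2 difference -0.29, adjusted p = 0.14), Ftl1 (log2 difference -0.09, adjusted p = 0.4) and Birc5 (log2 difference -1.15, adjusted p = 0.0502).

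In the endothelium, Slco1a4, an organic anion transporter of the blood-brain barrier, stood at 3.03, 2.98, 3.72, 3.44 and 3.69 CPM in acute and 9.27, 7.07, 3.30 and 6.48 in chronic libraries, of which library 3 lay within the acute range (log2 difference 0.95, SE 0.24, adjusted p = 0.019), and the phosphatase gene Ptprb was the other member of 19 called, also higher (log2 difference 0.75, SE 0.20, adjusted p = 0.027). These 2 rises among 19 genes stand beside 2.95% of all genes called higher. None of 9 endothelial activation genes was called, at a median of -0.11. Icam1, the ligand of leukocyte integrins, stood at 1.5, 1.07, 1.28 and 1.95 CPM in chronic libraries, overlapping the acute range of 1.45 to 3.09 and above healthy (log2 difference 1.89, adjusted p = 0.0091). Of 11 pericyte and smooth muscle genes 1 rose, against 2.95% of all genes: Rgs5 (log2 difference 0.40, SE 0.09, adjusted p = 0.012). Of 12 fibroblast and meningeal genes 3 fell: Aldh1a2, which makes retinoic acid, stood at 14.5, 16.5, 20.7, 18.4 and 14.9 CPM in acute and 12.6, 13.3, 10.7 and 12.1 in chronic libraries (log2 difference -0.48, SE 0.11, adjusted p = 0.0093). Slc6a13 and Igf2 had log2 differences of -0.72 (SE 0.18, adjusted p = 0.019) and -0.63 (SE 0.15, adjusted p = 0.021). No gene of the choroid plexus list (10 tested, median 0.75), the red blood cell list (5 tested, median 1.33) or the extracellular matrix and scar list (21 tested, median -0.03) was called. With single libraries left out, the call held (of 14 fits) in 12 for Slco1a4 (not without chronic library 1 or chronic library 2), 9 for Ptprb, 12 for Slc6a13 (not without acute library 3 or chronic library 3) and 13 for Igf2 (not without chronic library 3). Under the length and GC offset, no call against acute remained for Ptprb (log2 difference 0.65, adjusted p = 0.08).

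Of 22 oligodendrocyte genes, 21 had a positive log2 difference (median 0.40, where the median over all tested genes was 0.0077). The 3 that rose, against 2.95% of all genes, were Aspa, which degrades N-acetylaspartate, Ermn, a cytoskeletal protein of myelin, and Opalin. Aspa stood at 16.5, 14.1, 15.2, 15.4 and 11.6 CPM in acute and 22.5, 22.6, 18 and 19.8 in chronic libraries (log2 difference 0.51, SE 0.10, adjusted p = 0.005), and the chronic libraries overlapped the healthy range of 17.0 to 22.4. Ermn stood at 83.5, 64.3, 59.1, 64.3 and 51.9 CPM in acute and 85.5, 92.0, 77.4 and 95.8 in chronic libraries, the latter all above the healthy range of 64.9 to 73.4, with log2 differences of 0.44 (SE 0.10, adjusted p = 0.018) from acute and 0.34 (adjusted p = 0.12) from healthy. Opalin had a log2 difference of 0.55 (SE 0.14, adjusted p = 0.026). Of 11 precursor cell genes 1 fell, against 4.74% of all genes: Olig1 (log2 difference -0.18, SE 0.05, adjusted p = 0.044). Without chronic library 4, 1 of the 22 oligodendrocyte genes rose and the median was 0.21. Leaving out each library in turn, the call held (of 14 fits) in 12 for Ermn (not without chronic library 2 or chronic library 4), 7 for Opalin and 4 for Olig1. Calls against acute that ended with the length and GC offset were those of Ermn (log2 difference 0.34, adjusted p = 0.094) and Olig1 (log2 difference -0.07, adjusted p = 0.53).

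Of 24 glutamate receptor and postsynaptic genes 6 rose and 23 had a positive log2 difference, and of 27 voltage-gated channel genes 7 rose and 24 were positive, against 2.95% of all genes called higher. Shank3, a postsynaptic scaffold, stood at 95.5, 124, 88.8, 112 and 97.8 CPM in acute and 135, 132, 139.8 and 149.9 in chronic libraries, where the healthy range was 123 to 139 (log2 difference 0.42, SE 0.08, adjusted p = 0.0039). Shank1 rose with a log2 difference of 0.50 (SE 0.10, adjusted p = 0.0064), the AMPA receptor gene Gria4 with 0.28 (SE 0.06, adjusted p = 0.0045) and the NMDA receptor gene Grin2b with 0.32 (SE 0.07, adjusted p = 0.011). Kcnq3, a subunit of the M-type potassium channel, stood at 168, 159, 150.4, 162 and 158 CPM in acute and 199.6, 203, 185 and 208 in chronic libraries, within the healthy range of 174 to 218 (log2 difference 0.32, SE 0.06, adjusted p = 0.0022). Kcnd2, Kcnq5 and Scn1a had log2 differences of 0.31 (SE 0.06, adjusted p = 0.0045), 0.27 (SE 0.06, adjusted p = 0.008) and 0.28 (SE 0.07, adjusted p = 0.012). No gene of either list was called against healthy at day 30. Without chronic library 4, 4 of 24 and 5 of 27 rose, at medians of 0.074 and 0.13. With the length and GC offset 2 of 24 and 2 of 27 rose, and the medians went from 0.15 to 0.081 and from 0.18 to 0.15. Lost calls against acute with the length and GC offset were those of Gria4 (log2 difference 0.22, adjusted p = 0.051), Grin2b (log2 difference 0.15, adjusted p = 0.42), Kcnq3 (log2 difference 0.19, adjusted p = 0.076), Kcnq5 (log2 difference 0.22, adjusted p = 0.061) and Scn1a (log2 difference 0.17, adjusted p = 0.19).

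Among 18 layer 5 genes, Pcp4 stood at 30.8, 37.9, 35.3, 34.9 and 41.4 CPM in acute and 58.1, 46.2, 47.8 and 52.6 in chronic libraries, within the healthy range of 43.9 to 63.1 (log2 difference 0.50, SE 0.11, adjusted p = 0.014). The transcription factor genes Tox2 (log2 difference -0.25, SE 0.06, adjusted p = 0.012) and Pou3f1 (log2 difference -0.25, SE 0.07, adjusted p = 0.031) fell. Among 17 markers of upper layers and layer 6, Rorb of layer 4 stood at 40.6, 37.7, 40.4, 34.1 and 36.0 CPM in acute and 66.3, 43.4, 45.5 and 58.4 in chronic libraries, with a healthy range of 49.1 to 63.2 (log2 difference 0.50, SE 0.11, adjusted p = 0.013), and Foxp2 and Syt6 of layer 6 rose with log2 differences of 0.62 (SE 0.15, adjusted p = 0.023) and 0.48 (SE 0.13, adjusted p = 0.04). Cplx3, a complexin of subplate neurons, fell (log2 difference -0.35, SE 0.07, adjusted p = 0.0034). Of the 17 genes 3 rose and 1 fell, and of the 18 layer 5 genes 1 rose and 2 fell. These counts stand beside 2.95% of all genes called higher and 4.74% called lower. In the fit without chronic library 4, 1 of the 17 rose. With the length and GC offset 0 of the 17 rose, and 0 of the 18 layer 5 genes fell in place of 2. None of 17 interneuron genes was called, and Gad1, which makes GABA, had a log2 difference of -0.05 with a 95% interval of -0.15 to 0.06. Of 25 synaptic vesicle genes 1 was called (4%, against 4.74% of all genes called lower), Rab3a (log2 difference -0.11, SE 0.03, adjusted p = 0.0498). Over the 14 fits with 1 library left out, the call was kept in 8 for Pou3f1, 10 for Foxp2, 4 for Syt6 and 4 for Rab3a. The length and GC offset ended the call against acute for Tox2 (log2 difference -0.19, adjusted p = 0.1), Pou3f1 (log2 difference -0.14, adjusted p = 0.4), Rorb (log2 difference 0.38, adjusted p = 0.1), Foxp2 (log2 difference 0.48, adjusted p = 0.12), Syt6 (log2 difference 0.46, adjusted p = 0.074) and Rab3a (log2 difference -0.03, adjusted p = 0.82).

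All 38 nuclear-encoded respiratory chain genes had a negative log2 difference (median -0.13) and 11 were called. Cox5a, a subunit of cytochrome c oxidase, stood at 154, 164, 153, 156 and 166 CPM in acute and 132, 127, 128 and 133 in chronic libraries, against 129.7 to 141 in healthy ones (log2 difference -0.29, SE 0.04, adjusted p = 0.00068). Ndufs7 of complex I had a log2 difference of -0.33 (SE 0.05, adjusted p = 0.00065). Of 49 cytosolic ribosomal protein genes 17 fell (median -0.12), with Rps28 at 96.0, 99.5, 95.1, 99.6 and 118 CPM in acute and 78.3, 75.4, 70.0 and 61.0 in chronic libraries (log2 difference -0.52, SE 0.07, adjusted p = 0.00062). Against healthy, without the length and GC offset, 48 of the 49 were positive at day 30 (median 0.13). Of these, 5 were called (2 without chronic library 4), against 2.33% of all genes. Of the 38 respiratory chain genes 10 were positive against healthy (median -0.043) and none was called. Of 28 constitutive proteasome genes 4 fell, such as Psmb7 (log2 difference -0.21, SE 0.04, adjusted p = 0.0044), and 2 without chronic library 4. With the length and GC offset 6 of 38, 4 of 49 and 1 of 28 fell. None of the 12 mitochondrially encoded genes was called, and their mean level was highest in acute library 5, chronic library 4 and healthy library 3. In the opposite direction, 6 of 21 splicing genes rose, such as Luc7l2 (log2 difference 0.31, SE 0.06, adjusted p = 0.0027), Hnrnpu (log2 difference 0.22, SE 0.04, adjusted p = 0.0051) and Ddx5 (log2 difference 0.14, SE 0.03, adjusted p = 0.012), and with the offset 1 of the 21. Of 12 nuclear noncoding RNAs 2 rose, against 2.95% of all genes, Rian (log2 difference 0.16, SE 0.05, adjusted p = 0.03), which with the length and GC offset had a log2 difference of -0.10 (adjusted p = 0.34), and Ftx (log2 difference 0.47, SE 0.10, adjusted p = 0.0052). Of 16 circadian clock genes 2 rose, Dbp (log2 difference 0.29, SE 0.08, adjusted p = 0.042) and Nr1d2 (log2 difference 0.25, SE 0.05, adjusted p = 0.0077), against the same 2.95%, and 1 without chronic library 4. Of 20 cholesterol synthesis genes 1 fell, Fdft1 (log2 difference -0.19, SE 0.06, adjusted p = 0.049), against 4.74% of all genes. With single libraries left out, the call held (of 14 fits) in 8 for Rian, 5 for Dbp and 4 for Fdft1. Under the length and GC offset, no call against acute remained for Luc7l2 (log2 difference 0.18, adjusted p = 0.061), Hnrnpu (log2 difference 0.10, adjusted p = 0.36), Ddx5 (log2 difference 0.08, adjusted p = 0.23) and Fdft1 (log2 difference -0.14, adjusted p = 0.17).

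The 12 genes with the largest rise among those of at least 1 log2 CPM and with separate groups were Serpinb1a, Cdr1, Ido1, Syndig1l, Samd3, Trim7, Dach1, Acvrl1, Trim59, Dnah7b, Stk32a and Adamts4. Serpinb1a, an inhibitor of neutrophil proteases, stood at 1.67, 2.04, 2.79, 1.45 and 2.65 CPM in acute and 4.94, 5.29, 4.80 and 5.95 in chronic libraries, back in the healthy range of 4.75 to 6.87 (log2 difference 1.31, SE 0.19, adjusted p = 0.00065). Cdr1 stood at 9.83, 6.78, 9.39, 8.81 and 8.48 CPM in acute and 27.9, 16.8, 17.0 and 16.9 in chronic libraries (log2 difference 1.19, SE 0.19, adjusted p = 0.0026); the counting is not stated to use strand, so reads of its antisense partner cannot be told apart from its own. Ido1, which degrades tryptophan, stood at 1.78, 1.15, 1.32, 0.97 and 1.04 CPM in acute and 2.33, 2.54, 1.87 and 3.95 in chronic libraries (log2 difference 1.10, SE 0.29, adjusted p = 0.024), and overlapped the healthy range of 1.43 to 3.77. Syndig1l stood at 19.2, 12.9, 18.4, 14.4 and 17.5 CPM in acute and 32.2, 33.9, 26.9 and 37.5 in chronic libraries against 18.5 to 52.2 in healthy ones (log2 difference 0.99, SE 0.26, adjusted p = 0.036). The dopamine receptor gene Drd1, on the list of striatal and hippocampal markers, stood at 10.2 to 15.6 CPM in acute, 18.8 to 25.9 in chronic and 12.9 to 33.9 in healthy libraries, and that list had a median of 0.54 with none of 14 called; the part of tissue sampling in such genes was not tested. Trim59 and the aggrecanase gene Adamts4 had log2 differences of 0.82 (SE 0.12, adjusted p = 0.00078) and 0.73 (SE 0.20, adjusted p = 0.033), and Dach1, Acvrl1, Samd3, Trim7, Dnah7b and Stk32a ones of 0.85, 0.82, 0.91, 0.89, 0.82 and 0.74. Without chronic library 4 Adamts4 was not called (log2 difference 0.53, adjusted p = 0.099). Among the 12 largest falls, Mir6236 was the only gene not named above; counts over this annotated gene were 1.99, 1.58, 8.61, 0.926 and 11.4 CPM in acute and 0.888, 0.813, 0.320 and 0.843 in chronic libraries (log2 difference -2.75, SE 0.75, adjusted p = 0.045), high in acute libraries 3 and 5, and poly(A) libraries do not measure a mature miRNA. Leaving out each library in turn, the call held (of 14 fits) in 10 for Ido1, 7 for Syndig1l, 8 for Adamts4, 13 for Dach1 (not without chronic library 4), 12 for Samd3 (not without acute library 3 or chronic library 2), 12 for Trim7 (not without chronic library 1 or chronic library 2), 9 for Dnah7b, 7 for Stk32a and 3 for Mir6236. Calls against acute that ended with the length and GC offset were those of Dach1 (log2 difference 0.78, adjusted p = 0.052), Dnah7b (log2 difference 0.67, adjusted p = 0.11) and Mir6236 (log2 difference -2.53, adjusted p = 0.089).

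Il33, chosen after its values were seen because it had the smallest p of all rises, encodes an alarmin of oligodendrocytes and astrocytes. It stood at 49.2, 47.1, 50.4, 48.6 and 51.8 CPM in acute libraries, 82.5, 78.4, 68.2 and 92.2 in chronic ones and 57.9, 64.9, 60.0, 69.4 and 56.7 in healthy ones. Every chronic library exceeded every acute one, by a log2 difference of 0.70 (SE 0.07, adjusted p = 0.00014), while only chronic library 3 lay within the healthy range, and the log2 difference from healthy was 0.38 (adjusted p = 0.0063). Without chronic library 4 these were 0.62 (adjusted p = 0.00012) and 0.30 (adjusted p = 0.033).

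A few genes at day 30 lay outside both other groups. Ppp1r16b, a regulator of protein phosphatase 1, stood at 131, 125, 120.4, 124 and 128 CPM in acute, 165, 154, 159 and 165 in chronic and 123, 128, 139, 148 and 131 in healthy libraries, so that chronic exceeded both, by log2 differences of 0.35 (SE 0.05, adjusted p = 0.00065) from acute and 0.26 (adjusted p = 0.0061) from healthy. Foxo6, a forkhead factor of cortical neurons, stood at 30.6, 30.7, 30.7, 29.5 and 26.9 CPM in acute, 18.1, 19.6, 23 and 21.3 in chronic and 34.0, 31.0, 29.3, 25.6 and 33.4 in healthy libraries. Its log2 differences were -0.53 (SE 0.09, adjusted p = 0.0014) from acute and -0.58 (adjusted p = 0.0013) from healthy. Aldoa, the aldolase of glycolysis, stood at 2971, 2934, 2800.0, 2766 and 2853 CPM in acute, 2399, 2391, 2429.8 and 2311 in chronic and 2668, 2552, 2585, 2645 and 2649 in healthy libraries, with log2 differences of -0.27 (SE 0.03, adjusted p = 0.00014) from acute and -0.14 (adjusted p = 0.013) from healthy, the latter -0.13 (adjusted p = 0.058) and no longer called without chronic library 4. Slc25a22, a mitochondrial glutamate carrier, had log2 differences of -0.25 (SE 0.04, adjusted p = 0.0013) from acute and -0.18 (adjusted p = 0.012) from healthy, and Fam43b of -0.44 (SE 0.07, adjusted p = 0.0017) and -0.33 (adjusted p = 0.015). The length and GC offset ended the call against acute for Foxo6 (log2 difference -0.35, adjusted p = 0.069).

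**Figure D5:**
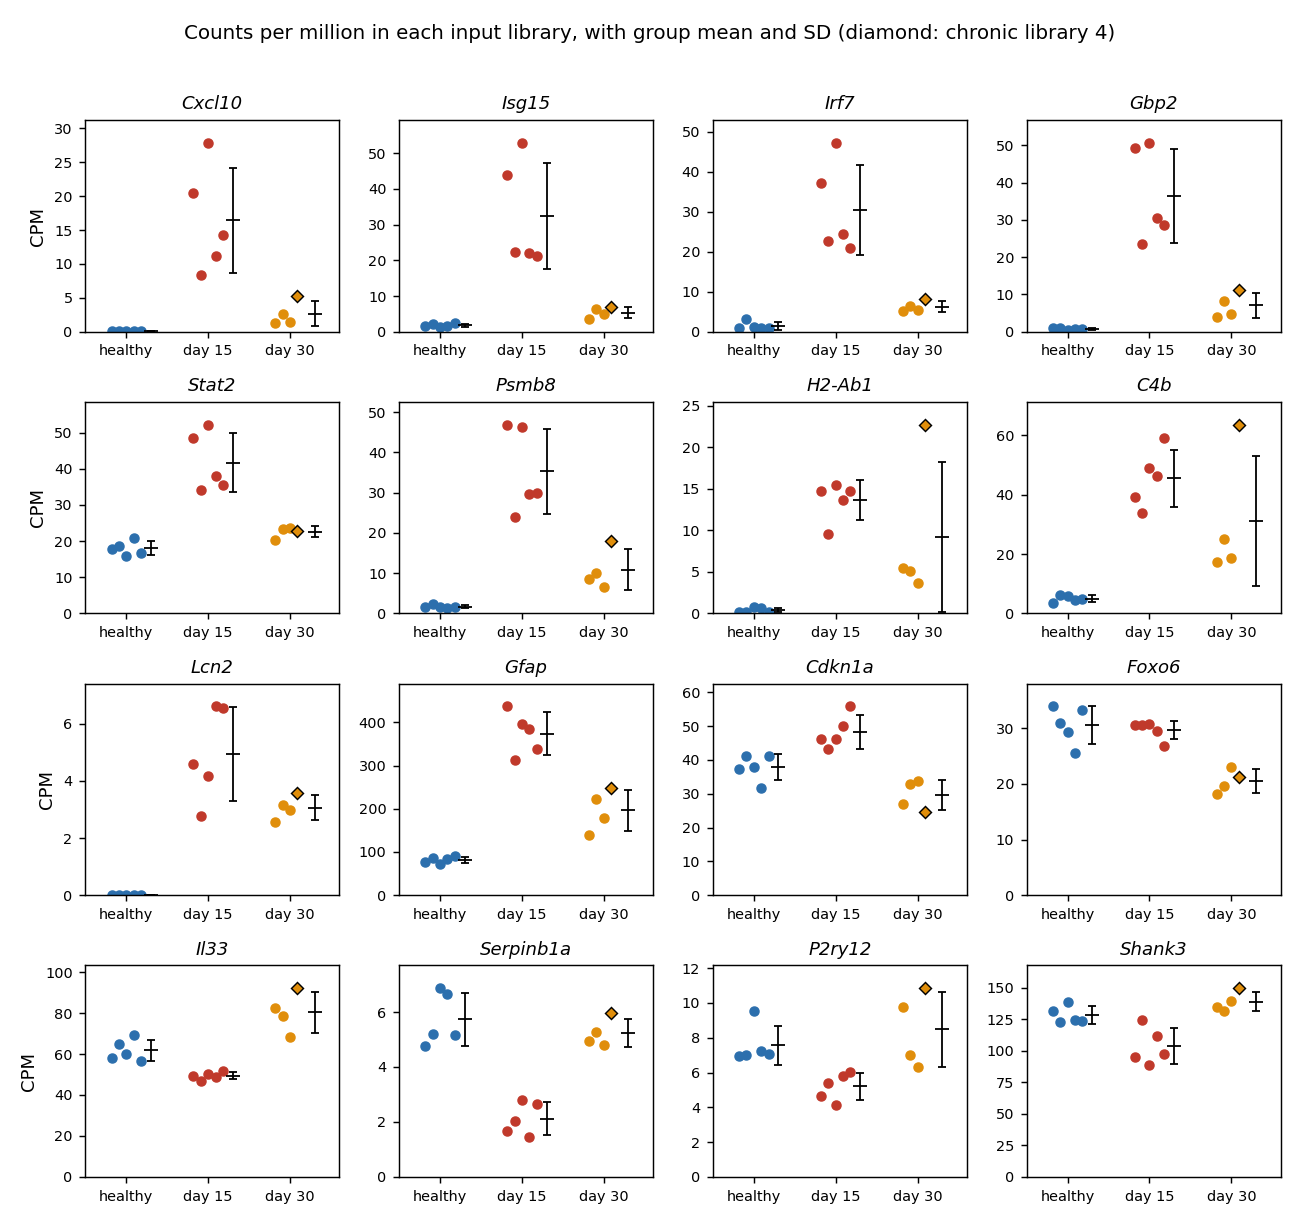
CPM of 16 genes in each input library (y axes from 0), with healthy in blue, day 15 in red and day 30 in orange; bars give the group mean and SD, and the diamond is chronic library 4. Cxcl10, Isg15, Irf7 and Gbp2 drop between day 15 and day 30, Lcn2 and Gfap stay above healthy, and Foxo6 is lowest and Il33 highest at day 30.

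Of the 382 genes above and the 67 below healthy at day 30, the largest differences above healthy with separate groups were those of Lcn2, Cxcl9, Ccl5, Tgtp2, Plac8, Cxcl10, H2-Ab1 and Iigp1, all described above. This ranking includes chronic library 4 and was not repeated without it. That library was far above the other chronic libraries for Cxcl9 (4.95 CPM, others 0.888 to 1.07) and H2-Ab1 (22.7 CPM, others 3.62 to 5.44). The largest below healthy were Tnnc1, Foxo6, Dtl and Dcx. Dcx, a microtubule protein of immature neurons, stood at 25.2, 24.8, 20.1, 22.8 and 22.4 CPM in acute, 29.1, 29.1, 28.4 and 26.6 in chronic and 47.7, 39.4, 33.0, 33.1 and 37.0 in healthy libraries, below healthy at both times. The log2 difference at day 30 was -0.43 (adjusted p = 0.016) from healthy and 0.29 (SE 0.10, adjusted p = 0.067) from acute, and without chronic library 4 the call against healthy was lost, at -0.40 (adjusted p = 0.062). Tnnc1 stood at 6.92 to 10.1 CPM in acute, 6.98 to 10.7 in chronic and 12.7 to 16.4 in healthy libraries, with log2 differences of 0.05 from acute and -0.69 (adjusted p = 0.0061) from healthy. Dtl, a ubiquitin ligase adaptor, had a log2 difference of -0.57 (adjusted p = 0.0024) from healthy. Without chronic library 4, 226 genes were above healthy and 24 below, and 32, 43 and 35 were below without healthy libraries 1, 2 and 5. Other settings gave more below healthy: 140 with the DESeq2 Wald test and 294 with the length and GC offset.

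Whether the change from day 15 to day 30 differed between whole cortex and the layer 5 pulldown was tested as an interaction over all 28 samples. The fit was by group, so an input and a pulldown library of the same group and number were treated as independent. Any link between such libraries was not modelled. None of 16580 genes passed (0%) in edgeR, 2321 had an unadjusted p under 0.05, and DESeq2 called 669. The log2 change of Isg15 in input minus that in the pulldown was 0.33 (95% interval -2.66 to 3.32), and that of Cxcl10 was -1.26 (95% interval -5.11 to 2.6). The lack of calls does not show that both kinds of RNA changed alike.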

How the data were processed

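The values are counts of read pairs per gene in whole cortex (input) and pulled-down RNA, which the authors deposited as 1 table; per the file headers they were made with featureCounts 1.5.1 over exons of Ensembl annotation 79 (GRCm38), with no strand option given. Per the labels' protocols the libraries were poly(A)-enriched, and the submitters' processing notes name STAR 2.4 and DESeq2. The header names 36 alignment files, and the 28 columns of this series were used. Here, 16381 genes passed edgeR's filterByExpr (minimum count 10, total 15), and edgeR 4.0.16 quasi-likelihood tests with TMM (R 4.3.3) were fitted to all 14 input libraries by group, 2-sided, with Benjamini-Hochberg adjustment over all tested genes at 0.05. The interaction used all 28 libraries. SE values derive from the F statistic, and intervals are 95%. Every pair of replicate libraries was compared by a chi-square statistic on counts, which divided by its degrees of freedom was at least 4.05, so none was merged. Alternatives were DESeq2 1.42.0, limma voom 3.58.1 with library weights, other filters and scalings, a replicate block, each library left out, and a length and GC offset. Replicate numbers did not pair input samples across groups, and pairs of input and pulldown with the same number were not examined. The named genes were the 12 largest changes in each direction with separate groups and an average of at least 1 log2 CPM, 8 above and 4 below healthy, up to 4 each way outside both groups, the members with the smallest p of each list, and further members as examples of a role. The comparison and the 49 gene lists were chosen with earlier results of these data known. The fits were run on simulated counts with planted changes. These held no length or GC trend and no outlying library, so they cannot speak to those features. Promoter windows and sequences come from RefSeq (GRCm38.p6); Mx1, Rtp4 and some other genes had no window. Results of some single genes are not reported here.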

Additional observations from a re-analysis of the deposited data

Results flagged for a closer look

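Of 332 groups of 4 or 5 libraries tested over 166 genes, 23 held 1 library whose CPM lay far from the rest, by the gap to its nearest neighbour as a share of the group's range. Chance alone would give about 1 in 20 groups. Chronic library 4 accounted for 12 of them. Its CPM was far above the other chronic libraries for genes of antigen presentation and interferon or acute phase response: B2m 209 (others 64.8 to 86.9), Bst2 14.2 (others 4.61 to 6.20), Cd74 72.5 (others 16 to 21.3), Cxcl9 4.95 (others 0.888 to 1.07), H2-Ab1 22.7 (others 3.62 to 5.44), H2-K1 89.3 (others 17.1 to 25.7) and Saa3 0.474 (others 0.111 to 0.160). It was also far above for genes of lipid handling, complement and microglia: Apoe 837 (others 313 to 364), C1qb 33.9 (others 12.6 to 13.4) and Trem2 12.2 (others 4 to 5.22). The same held for Dach1 14 (others 9.55 to 10.3) and Stk32a 7.38 (others 5.50 to 5.74).

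Among acute libraries the CPM far from the rest were Ccl5 in acute library 1 18.5 (others 6.96 to 9.49), Cplx3 in acute library 4 31.7 (others 34.6 to 35.2), Gria4 in acute library 5 68.3 (others 59 to 61.3), Hmox1 in acute library 3 12.4 (others 9.83 to 10.5), Luc7l2 in acute library 4 136 (others 118 to 123), Rps28 in acute library 5 118 (others 95 to 99.7) and Slc17a7 in acute library 5 1558 (others 1204 to 1304). Among the other chronic libraries they were Cdr1 in chronic library 1 27.9 (others 16.8 to 17), Foxp2 in chronic library 3 17.4 (others 22.7 to 23.2), Mir6236 in chronic library 3 0.320 (others 0.813 to 0.888) and Rab3a in chronic library 1 957 (others 919.5 to 923).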

How the results depend on the processing

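Counts of rises and falls between day 15 and day 30 (483 and 776) were within 1.5 times of those with DESeq2 size factors (484 and 788), no filter (415 and 732), the DESeq2 Wald test (660 and 1016), acute and chronic libraries alone (413 and 618) and voom with library weights (644 and 928). The length and GC offset gave 192 and 329. Against healthy it gave 294 genes lower in chronic and 1080 higher in acute libraries. A fit of all 28 libraries gave 0 and 0 (67 genes at an unadjusted p under 0.05), 0 and 0 for chronic against healthy, and 20 and 0 for acute against healthy; its estimate of spread is shared with the pulldown libraries. Chronic against healthy gave 243 higher with voom and 140 lower with the DESeq2 Wald test, which called 669 genes in the interaction. With 1 library left out, rises ranged from 259 to 582 and falls from 525 to 813, chronic against healthy from 226 to 438 higher and 24 to 90 lower, and the interaction from 0 to 19, of which 19 came without acute library 1 and 4 without chronic library 1.

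The replicate numbers did not pair the input samples across groups (correlations of deviations between acute and chronic of 0.0529, 0.0237, -0.0959 and -0.065), and a fit with the replicate block called 370 rises and 561 falls. The log2 differences that changed sign belonged to genes not called, save Rian (-0.10 with the offset). With the block they were 0.0708 for Apoe and -0.0099 for Ptprc, and with the offset 0.0231 for Apoe, -0.0882 for Ddx3y, 0.0491 for Irf3 and -0.10 for Ptprc. With voom they were -0.25 for Ptprc and -0.0334 for Trem2. With 1 library left out the ranges were -0.53 to 0.24 for Apoe, -0.23 to 0.0567 for Cgas, -0.32 to 0.24 for Ddx3y, -0.06 to 0.0294 for Irf3, -0.26 to 0.31 for Ptprc, -0.0665 to 0.14 for Tnnc1 and -0.33 to 0.35 for Trem2. Except where stated, the cause of these shifts was not tested. Counting error limits the precision of genes near 1 CPM.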
